A study of Mus musculus with 10 samples.

Results

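Fibroblast and stromal progenitor markers were followed in RNA-seq of mouse peritoneum, the lining of the abdominal cavity. The set holds 10 genes, chosen by symbol as known markers of fibroblasts and of their progenitors: Pdgfra, Cd34, Dpt, Serpinf1, Smoc2, Pi16, Dpp4, Clec3b, Mfap5 and Scara5. The set, like the other gene lists below, was chosen with earlier results of these data known. Shares over all tested genes are therefore given as background and do not test the set. All 10 were present among the 21877 gene symbols counted, and all 10 passed the filter on low counts, which left 15385 genes to test. Male C57BL/6 mice with an intact Mr1 gene (Mr1+/+) or without it (Mr1-/-) were injected intraperitoneally for 6 weeks with phosphate-buffered saline (PBS) or with an equal volume of 4.25% peritoneal dialysis (PD) fluid, and the peritoneum was then collected. The Mr1 protein displays small metabolites of microbes on the cell surface, where a class of innate-like T cells recognises them. The deposit held 3 libraries for each Mr1+/+ group and 2 for each Mr1-/- group, and ages, doses per injection and the line or origin of the Mr1-/- mice were not given in the sources used here.

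Fibroblasts are the matrix-producing cells of connective tissue. In mouse tissues a pan-fibroblast programme, with the receptor Pdgfra and the matrix protein Dpt, is shared by most fibroblasts, whereas cells marked by Pi16 and Dpp4 form a stromal population that lies in the adventitia and in the sheets around fat and is regarded as a progenitor of other fibroblasts and of preadipocytes. In the peritoneum, submesothelial fibroblasts are a main source of collagen when the membrane thickens during long peritoneal dialysis.

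Library totals ranged from 14145635 to 16335799 counts, and counts of a member in a library ranged from 68 to 3949. Mr1 was counted 324 to 524 times in the Mr1+/+ libraries and 29 to 39 times in the Mr1-/- libraries, so each library matched its genotype label. A comparison of counts by chi-square gave 2.23 per gene between the first 2 Mr1+/+ PBS libraries, and 1.74 between the only Mr1-/- PD fluid libraries. The remaining 6 pairs of a group gave 18.6 to 118. Each of the 2 close pairs was therefore summed and counted as 1 sample, which left 2 samples for Mr1+/+ PBS, 3 for Mr1+/+ PD fluid, 2 for Mr1-/- PBS and 1 for Mr1-/- PD fluid. The labels do not say which animal each library came from. The p-values below therefore reflect only how much these samples vary, part of which may be technical, and the lone Mr1-/- PD fluid sample was assumed to vary like the other groups. In the PBS groups 2 samples stood apart. Mr1+/+ PBS replicate 3 held 8 intestinal epithelium markers at a summed 2207 CPM (counts scaled to a common library size) against 24.4 to 35.8 in the other samples, and 7 pancreatic acinar markers at 21810 CPM against 127 to 4281. Mr1-/- PBS replicate 2 held the pericyte gene Rgs5 at 709.8 CPM against 113 to 172 elsewhere. Values below are CPM scaled by edgeR's trimmed mean of M-values, and each sample's values are listed with the summed pair first in Mr1+/+ PBS and otherwise in replicate order.

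RefSeq's promoter table for build GRCm38.p6 (mm10) held 6 of the 10 members. The sequences shown belong to the 4 of them that passed the test in PD fluid against PBS in Mr1+/+ mice, and show the start regions of genes whose RNA was higher in the same samples. Each runs 5′ to 3′ on the gene's own strand over 300 bases, 250 before and 50 after RefSeq's start, with searched motifs in capitals. Serpinf1 lies at chr11:75422574-75422873 on the minus strand, Dpt at chr1:164796413-164796712, Cd34 at chr1:194938571-194938870 and Pdgfra at chr5:75152001-75152300, these on the plus strand.
Serpinf1: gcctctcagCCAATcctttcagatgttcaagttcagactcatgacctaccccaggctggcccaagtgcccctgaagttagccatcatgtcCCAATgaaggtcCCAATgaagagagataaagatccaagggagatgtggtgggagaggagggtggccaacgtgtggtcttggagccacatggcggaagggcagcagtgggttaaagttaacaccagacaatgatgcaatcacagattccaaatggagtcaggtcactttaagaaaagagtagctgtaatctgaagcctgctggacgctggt
Dpt: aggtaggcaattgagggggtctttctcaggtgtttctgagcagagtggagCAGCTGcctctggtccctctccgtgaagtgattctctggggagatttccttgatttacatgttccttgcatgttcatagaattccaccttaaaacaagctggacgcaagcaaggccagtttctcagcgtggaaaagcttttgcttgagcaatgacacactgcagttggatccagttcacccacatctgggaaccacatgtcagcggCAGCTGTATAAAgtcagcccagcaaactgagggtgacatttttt
Cd34: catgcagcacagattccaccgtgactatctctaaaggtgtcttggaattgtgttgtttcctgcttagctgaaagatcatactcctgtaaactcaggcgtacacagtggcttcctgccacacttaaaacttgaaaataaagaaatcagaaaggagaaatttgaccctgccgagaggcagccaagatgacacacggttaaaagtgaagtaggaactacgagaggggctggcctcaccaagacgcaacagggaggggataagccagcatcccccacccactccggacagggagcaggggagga
Pdgfra: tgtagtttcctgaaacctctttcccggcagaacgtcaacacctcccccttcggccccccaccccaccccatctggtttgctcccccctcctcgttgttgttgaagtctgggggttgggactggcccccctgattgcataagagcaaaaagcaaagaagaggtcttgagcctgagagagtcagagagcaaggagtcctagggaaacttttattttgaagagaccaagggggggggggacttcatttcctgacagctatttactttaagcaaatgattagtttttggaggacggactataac
Both strands were searched for the TATA box TATAAA, the E-box CAGCTG, the TEAD motif GGAATG, the AP-1 motif TGANTCA, the letters CCAAT and the CArG box. Positions are counted from +1 at RefSeq's start. The Serpinf1 window held CCAAT at -241, -160 and -148, and 37.4% of the 32851 promoters in the table held it at least once. The Dpt window held CAGCTG at -200 and again at 7, where it adjoined TATAAA at 13. CAGCTG was found in 16.3% of all promoters and TATAAA in 13.6%. Neither Cd34 nor Pdgfra held any of the 6 motifs in this window, and the TEAD motif, the AP-1 motif and the CArG box, found in 14.7%, 7.81% and 1.63% of all promoters, were in none of the 4 windows. No searched motif was common to the 4 windows.

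In Mr1+/+ mice, 7 of the 10 members were higher after PD fluid than after PBS, by 1.64-fold (Pdgfra) to 3.86-fold (Clec3b), and none was lower. They were the surface proteins Pdgfra and Cd34, the secreted proteins Dpt and Serpinf1, and Clec3b, Mfap5 and Scara5 of the adventitial progenitor programme. For background, 8.49% of the 15385 tested genes were called higher and 6.37% lower by edgeR's quasi-likelihood test at a Benjamini-Hochberg adjusted p under 0.05. The members' median log2 fold change was 1.68, beside a median of -0.06 over all tested genes. An unadjusted p under 0.05 was reached by 8 of the 10 members and by 34.1% of all tested genes. Pi16 had the largest fold change of the 10 but missed the threshold, as did Smoc2, and the Dpp4 estimate was below 0. With DESeq2 in place of edgeR, 9 of the 10 members and 3780 of the 15385 tested genes were called, in either direction. In all 3 PD fluid samples 9 members, all but Dpp4, stood above both PBS samples, an ordering that 25% of all tested genes also had. In bulk tissue, more fibroblasts and more RNA per fibroblast cannot be told apart.

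**Figure D1:**
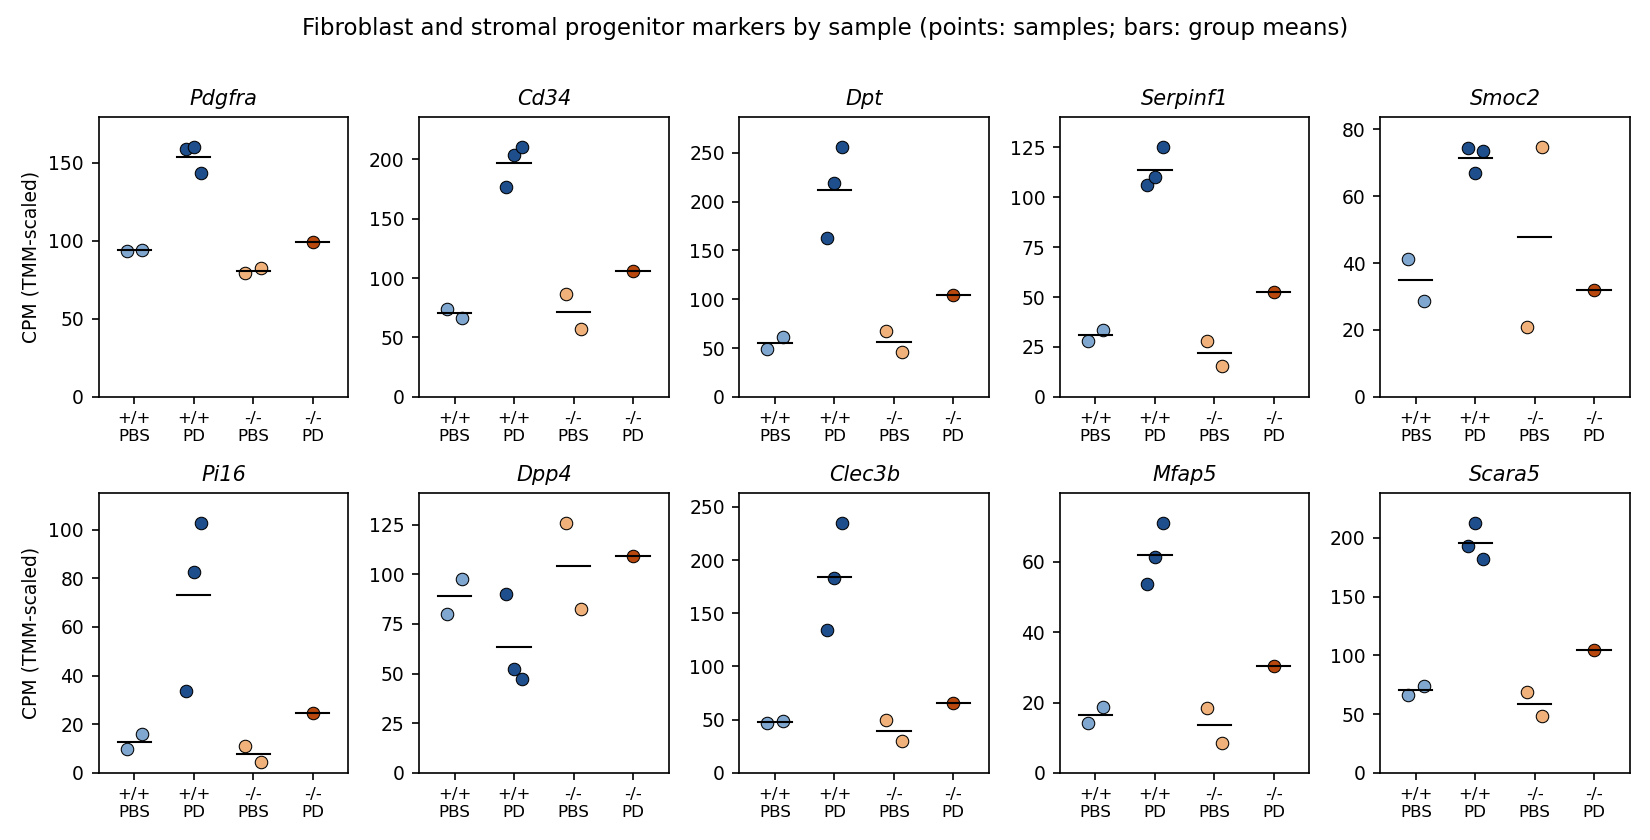
Level of each member in the 8 samples, in CPM on a linear axis from 0, by genotype (+/+ or -/-) and fluid. Points are samples and bars are group means (n = 2, 3, 2 and 1). In 9 panels the 3 Mr1+/+ PD fluid samples lie above both Mr1+/+ PBS samples and above the Mr1-/- PD fluid sample, and in the Dpp4 panel they do not.

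Pdgfra, the alpha receptor for platelet-derived growth factor and the usual surface marker of fibroblasts, lies on chromosome 5 from 75152292 to 75198215 (plus strand). It was measured at 93.3 and 94.3 CPM in Mr1+/+ PBS, 158, 160 and 143 CPM in Mr1+/+ PD fluid, 79.0 and 82.3 CPM in Mr1-/- PBS and 99.1 CPM in Mr1-/- PD fluid. The samples of a group lay close together, the 3 Mr1+/+ PD fluid samples were the highest of the 8, and no group overlapped another. The rise in Mr1+/+ was 0.71 on the log2 scale (SE 0.13, edgeR adjusted p = 0.0159), the smallest of the 7 that passed.

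Cd34, a sialomucin on stromal progenitors and also on endothelial cells, lies on chromosome 1 from 194938819 to 194961279 (plus strand). Its levels were 74.4 and 66.5 CPM in Mr1+/+ PBS, 177, 203 and 210 CPM in Mr1+/+ PD fluid, 86.3 and 56.8 CPM in Mr1-/- PBS and 106 CPM in Mr1-/- PD fluid. The Mr1+/+ PD fluid samples were again apart from all others, while the PBS samples of both genotypes overlapped. The log2 rise in Mr1+/+ was 1.48 (SE 0.20, edgeR adjusted p = 0.0124). Blood endothelial markers moved in the same samples: 6 of 10 were called higher in this comparison, and their summed level was 1182 to 1284 CPM in Mr1+/+ PBS, 1847 to 2327 in Mr1+/+ PD fluid, 1071 to 1265 in Mr1-/- PBS and 1314 in Mr1-/- PD fluid. Their part in the Cd34 result was not tested.

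Dpt, or dermatopontin, a small matrix protein that binds decorin and is expressed by fibroblasts of nearly all mouse tissues, lies on chromosome 1 from 164796644 to 164824266 (plus strand). Its RNA stood at 48.6 and 61.7 CPM in Mr1+/+ PBS, 162, 219 and 256 CPM in Mr1+/+ PD fluid, 67.1 and 46.0 CPM in Mr1-/- PBS and 104 CPM in Mr1-/- PD fluid. Every Mr1+/+ PD fluid sample exceeded the other 5 samples, and the PBS samples of the genotypes overlapped. It rose by 1.95 on the log2 scale in Mr1+/+ (SE 0.26, edgeR adjusted p = 0.0124), which is a 3.85-fold difference.

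Serpinf1 encodes pigment epithelium-derived factor, a secreted serpin that inhibits blood vessel growth. The gene lies on chromosome 11 from 75409769 to 75422701 (minus strand). Samples read 28.2 and 33.6 CPM in Mr1+/+ PBS, 106, 110 and 125 CPM in Mr1+/+ PD fluid, 28.1 and 15.6 CPM in Mr1-/- PBS and 52.6 CPM in Mr1-/- PD fluid. The Mr1+/+ PD fluid samples formed a narrow group above all others, and the Mr1-/- PD fluid sample was second to them. The Mr1+/+ difference was 1.88 on the log2 scale (SE 0.25, edgeR adjusted p = 0.0124).

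Smoc2, a secreted calcium-binding matricellular protein, lies on chromosome 17 from 14279506 to 14404790 (plus strand). Its values were 41.1 and 28.6 CPM in Mr1+/+ PBS, 74.3, 66.7 and 73.5 CPM in Mr1+/+ PD fluid, 20.9 and 74.6 CPM in Mr1-/- PBS and 32.0 CPM in Mr1-/- PD fluid. Mr1-/- PBS replicate 2, the sample with high Rgs5, was the highest of all 8 and replicate 1 of the same group the lowest. The Mr1+/+ difference of 1.03 (log2, SE 0.51) had an edgeR adjusted p of 0.211. Leaving out Mr1-/- PBS replicate 2 bears on the shared estimate of spread and hardly on this log2 difference, which was also 1.03. The fit gives each group its own mean.

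Among the 5 progenitor genes, Clec3b encodes tetranectin, a plasminogen-binding secreted protein, and lies on chromosome 9 from 123150946 to 123157432 (plus strand). It was present at 46.4 and 48.9 CPM in Mr1+/+ PBS, 134, 183 and 235 CPM in Mr1+/+ PD fluid, 49.2 and 30.1 CPM in Mr1-/- PBS and 65.2 CPM in Mr1-/- PD fluid. The PD fluid samples of the genotypes did not overlap, and the PBS samples of the genotypes overlapped. Its rise in Mr1+/+ was 1.95 on the log2 scale (SE 0.29, edgeR adjusted p = 0.0124).

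Mfap5, a microfibril-associated glycoprotein of elastic fibres, lies on chromosome 6 from 122505845 to 122529290 (plus strand). It was measured at 14.05 and 18.7 CPM in Mr1+/+ PBS, 53.7, 61.4 and 71.1 CPM in Mr1+/+ PD fluid, 18.4 and 8.59 CPM in Mr1-/- PBS and 30.4 CPM in Mr1-/- PD fluid. The order of the groups was that of Serpinf1, with Mr1-/- PD fluid between the PBS samples and the Mr1+/+ PD fluid samples. The Mr1+/+ rise was 1.93 (log2, SE 0.33, edgeR adjusted p = 0.0159).

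Scara5, a class A scavenger receptor that binds ferritin, lies on chromosome 14 from 65666403 to 65764826 (plus strand). Its levels were 66.1 and 74.1 CPM in Mr1+/+ PBS, 193, 212 and 182 CPM in Mr1+/+ PD fluid, 69.0 and 48.2 CPM in Mr1-/- PBS and 105 CPM in Mr1-/- PD fluid. All PD fluid samples lay above all PBS samples, within and across genotypes. Scara5 had the smallest p of the 10 members in Mr1+/+, with a log2 rise of 1.48 (SE 0.19, edgeR adjusted p = 0.0124).

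Pi16, a peptidase inhibitor that names the progenitor population, lies on chromosome 17 from 29317680 to 29330593 (plus strand). It ranged most widely: 9.75 and 15.9 CPM in Mr1+/+ PBS, 33.7, 82.6 and 103 CPM in Mr1+/+ PD fluid, 11.1 and 4.60 CPM in Mr1-/- PBS and 24.7 CPM in Mr1-/- PD fluid. All PD fluid samples exceeded all PBS samples, and Mr1+/+ PD fluid replicate 1 was well under the other replicates of its group. The 5.74-fold higher estimate in Mr1+/+ (log2 2.52, SE 0.64) had an edgeR adjusted p of 0.0523 and so was not called. With Mr1+/+ PD fluid replicate 1, the lowest of its group, left out the log2 difference was 2.86 and the adjusted p 0.0232. Without Mr1+/+ PD fluid replicate 3, Pi16 was not called. With the mean adipocyte marker level as a covariate, its estimate was below 0. DESeq2, which called 3780 of 15385 genes in this comparison, gave Pi16 a log2 difference of 2.51 and an adjusted p of 1.73e-06.

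Dpp4, a membrane dipeptidyl peptidase also known as CD26, lies on chromosome 2 from 62330073 to 62412231 (minus strand). It marks the same progenitor population as Pi16 but is also made by T cells and by epithelium. Samples held 80.0 and 97.9 CPM in Mr1+/+ PBS, 90.3, 52.2 and 47.2 CPM in Mr1+/+ PD fluid, 126 and 82.5 CPM in Mr1-/- PBS and 109 CPM in Mr1-/- PD fluid. The lowest values of all 8 samples were Mr1+/+ PD fluid replicates 2 and 3, whereas replicate 1 fell among the PBS samples. The Mr1+/+ log2 difference of -0.49 (SE 0.31, edgeR adjusted p = 0.305) was within the spread between samples. Of 7 T cell markers, 3 were called lower in Mr1+/+ PD fluid. Their summed level was 600 to 923 CPM in Mr1+/+ PBS, 377 to 567 in Mr1+/+ PD fluid, 719 to 741 in Mr1-/- PBS and 681 in Mr1-/- PD fluid. Summed mesothelial markers were 212 and 1101 CPM in Mr1+/+ PBS, 546, 217 and 231 in Mr1+/+ PD fluid, 241 and 95.1 in Mr1-/- PBS and 396 in Mr1-/- PD fluid. The 1101 CPM belonged to Mr1+/+ PBS replicate 3, the sample high in intestinal epithelium markers. The mesothelial list includes the keratin genes Krt8, Krt18 and Krt19. The lowest mesothelial sum was that of Mr1-/- PBS replicate 2. The part of T cells, mesothelium and intestinal epithelium in the Dpp4 values was not tested.

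The calls in Mr1+/+ depended on PD fluid replicate 3 and in part on replicate 2. Without Mr1+/+ PD fluid replicate 3, no gene of the whole table was called and the 7 members that had been called had adjusted p-values of 0.0576 to 0.0692. Without replicate 2, 4 members and 339 of 15374 genes were called. The log2 differences of those 7 stayed between 0.70 and 1.98 in both fits. Fat also moved with the members: 11 of 13 adipocyte markers were called higher, and their summed level was 7002 to 8743 CPM in Mr1+/+ PBS, 20500 to 29380 in Mr1+/+ PD fluid, 9281 to 13800 in Mr1-/- PBS and 11680 in Mr1-/- PD fluid. With the mean adipocyte marker level as a covariate, no member was called (adjusted p from 0.16 to 1). The other 7 members kept the sign of their log2 estimate in Mr1+/+, with Pdgfra at 0.91, Scara5 at 0.58, Cd34 at 0.42, Dpt at 0.15, Serpinf1 at 0.14, Smoc2 at 4.45 and Dpp4 at -0.76, whereas Clec3b, Mfap5 and Pi16 stood at -0.02, -0.51 and -1.77. In Mr1+/+ mice the adipocyte levels of the fluids did not overlap, so the covariate and the fluid cannot be told apart there.

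In Mr1-/- mice, 8 members were higher in the PD fluid sample than in both PBS samples, an ordering that 28.7% of all tested genes also had. Smoc2 and Dpp4 lay between the PBS samples. No member was called by edgeR (adjusted p = 1 for each), and neither was any of the 15385 genes (0%). At an unadjusted p under 0.05 the test held 4 of the 10 members, all higher, while 1.5% of all tested genes passed it in either direction and 1.2% with a higher level. They were Serpinf1 (log2 1.27, SE 0.30), Mfap5 (1.18, SE 0.40), Dpt (0.88, SE 0.31) and Scara5 (0.84, SE 0.23). The others had log2 differences of 1.66 for Pi16, 0.72 for Clec3b, 0.57 for Cd34, 0.30 for Pdgfra, 0.07 for Dpp4 and -0.58 for Smoc2. Without Mr1-/- PBS replicate 2, the Smoc2 difference was 0.61 and the Dpp4 difference -0.20. The members' median was 0.78, beside -0.01 over all tested genes. DESeq2 called 3 genes in this comparison and no member.

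Under PBS no member differed between the genotypes at the adjusted threshold, and 2 of all tested genes did (0.013%). Log2 differences of Mr1-/- against Mr1+/+ ran from -0.70 for Pi16 to 0.45 for Smoc2. No member had an unadjusted p under 0.05, where 8.64% of all tested genes did. The 95% intervals still allowed sizeable differences, from -0.57 to 0.64 for Dpt and from -2.33 to 0.94 for Pi16.

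Under PD fluid 9 of the 10 members were lower in the Mr1-/- sample than in every Mr1+/+ sample, an ordering found in 33.9% of all tested genes, and none of these differences was called. Dpp4 was higher in the Mr1-/- sample than in every Mr1+/+ sample, as were 36% of all tested genes. The largest differences were those of Pi16 (log2 -1.56, SE 0.80, edgeR adjusted p = 0.349) and Clec3b (-1.496, SE 0.38, adjusted p = 0.149). Smoc2, Serpinf1, Dpt, Mfap5, Scara5, Cd34 and Pdgfra had log2 differences of -1.16, -1.11, -1.03, -1.03, -0.90, -0.89 and -0.63, and Dpp4 of 0.79. An unadjusted p under 0.05 was reached by 7 of the 10 members (all lower) and by 19.1% of all tested genes (8.85% lower), and 0.013% of all genes were called. This comparison rests on 1 sample of 2 near-identical libraries. DESeq2 called 6 members lower (Pdgfra, Cd34, Dpt, Serpinf1, Clec3b and Scara5, adjusted p from 0.00137 to 0.0167). The edgeR fit restricted to the 2 PD fluid groups also called 6, with Smoc2 and Mfap5 in place of Pdgfra and Dpt. Of all genes, DESeq2 called 1031 of 15385 and the restricted fit 561 of 14662, in either direction.

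The test of the difference itself, the genotype by PD fluid interaction, called no member and no gene (0%). Its estimates were below 0 for 9 members. Those with an unadjusted p under 0.05 were Clec3b (log2 -1.23, SE 0.47, edgeR adjusted p = 0.342), Dpt (-1.06, SE 0.41, adjusted p = 0.339) and Cd34 (-0.91, SE 0.33, adjusted p = 0.321), 3 of 10 beside 13.2% of all tested genes in either direction and 7.16% below 0. The Dpp4 interaction was 0.56 (SE 0.52). DESeq2 called no member in this test and 472 genes in all, with 2037 genes at an unadjusted edgeR p under 0.05. The unadjusted 95% interval of the Clec3b interaction ran from -2.33 to -0.14, and that of Pi16 from -3.32 to 1.595. Only the intervals of Clec3b, Dpt and Cd34 left out 0.

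**Figure D2:**
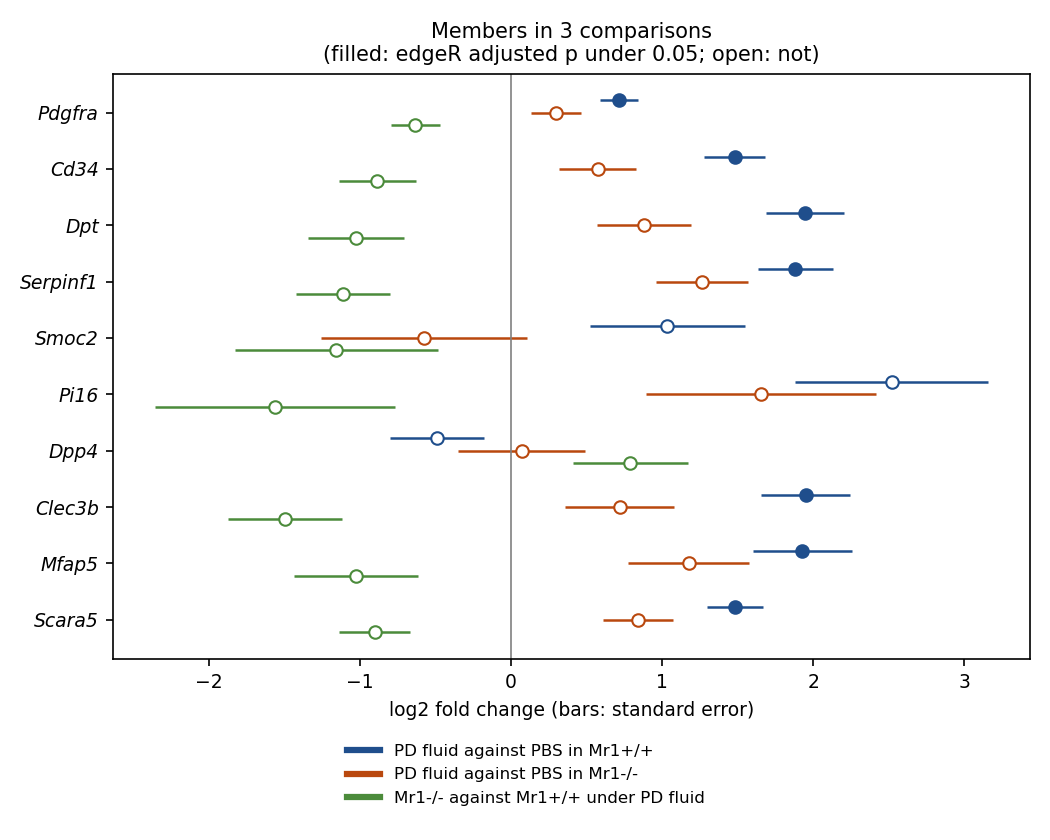
Log2 fold change of each member (x axis, with standard errors) in PD fluid against PBS in Mr1+/+ (blue), PD fluid against PBS in Mr1-/- (orange) and Mr1-/- against Mr1+/+ under PD fluid (green). Filled points passed the edgeR test, which 7 members did in Mr1+/+ and none did in the other comparisons. The comparisons share samples, so the points of a gene are not independent.

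Per kilobase of exon, the members differed widely in level, and their order was not the same in each group. Clec3b and Dpt were the first and second of the 10 in each group, at mean levels of 48.0 and 32.0 CPM per kb in Mr1+/+ PBS, 186 and 123 in Mr1+/+ PD fluid, 40.0 and 32.8 in Mr1-/- PBS and 65.8 and 60.4 in Mr1-/- PD fluid. Samples of these genes overlapped in Mr1+/+ PD fluid and in Mr1-/- PBS. Dpp4 came next in Mr1+/+ PBS at 14.1 CPM per kb, where its samples overlapped those of Serpinf1, and last in Mr1+/+ PD fluid at 10.01, where they overlapped those of Smoc2. Pi16 was last in the other 3 groups, at 2.01, 1.23 and 3.88 CPM per kb, and eighth in Mr1+/+ PD fluid at 11.5. Pdgfra, Pi16 and Smoc2 overlapped their neighbours in that group.

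Set against other fibroblast genes of the same sample, the members did not all keep the same distance. The reference was the mean log2 CPM of 22 other pan-fibroblast genes, the collagens and proteoglycans among them. In Mr1+/+ mice, Pdgfra stood 0.35 and 0.56 above that mean under PBS and between -0.31 and 0.15 from it under PD fluid. Dpt had the opposite order, between -0.38 and -0.26 under PBS and between 0.18 and 0.53 under PD fluid. Clec3b lay between -0.59 and -0.45 under PBS and between -0.09 and 0.41 under PD fluid. Serpinf1 and Mfap5 were also nearer to the mean in each PD fluid sample than in each PBS sample. Dpp4 was at 0.33 and 0.41 under PBS and between -1.90 and -0.66 under PD fluid. Pi16 was between -2.64 and -2.18 under PBS and between -2.07 and -0.78 under PD fluid, with replicate 1 of PD fluid nearest to the PBS samples. These values are log2 differences within a sample and were not tested. The CPM ratio of Pi16 to Pdgfra was 0.105 and 0.168 in Mr1+/+ PBS, 0.212, 0.516 and 0.718 in Mr1+/+ PD fluid, 0.140 and 0.0559 in Mr1-/- PBS and 0.249 in Mr1-/- PD fluid. The ratio of Dpp4 to Pdgfra, the other progenitor marker, was 0.857 and 1.04, then 0.570, 0.326 and 0.330, then 1.59 and 1.002, and 1.10 in the same order of samples. In Mr1+/+ the Pi16 ratio was thus higher, and the Dpp4 ratio lower, in each PD fluid sample than in each PBS sample.

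**Figure D3:**
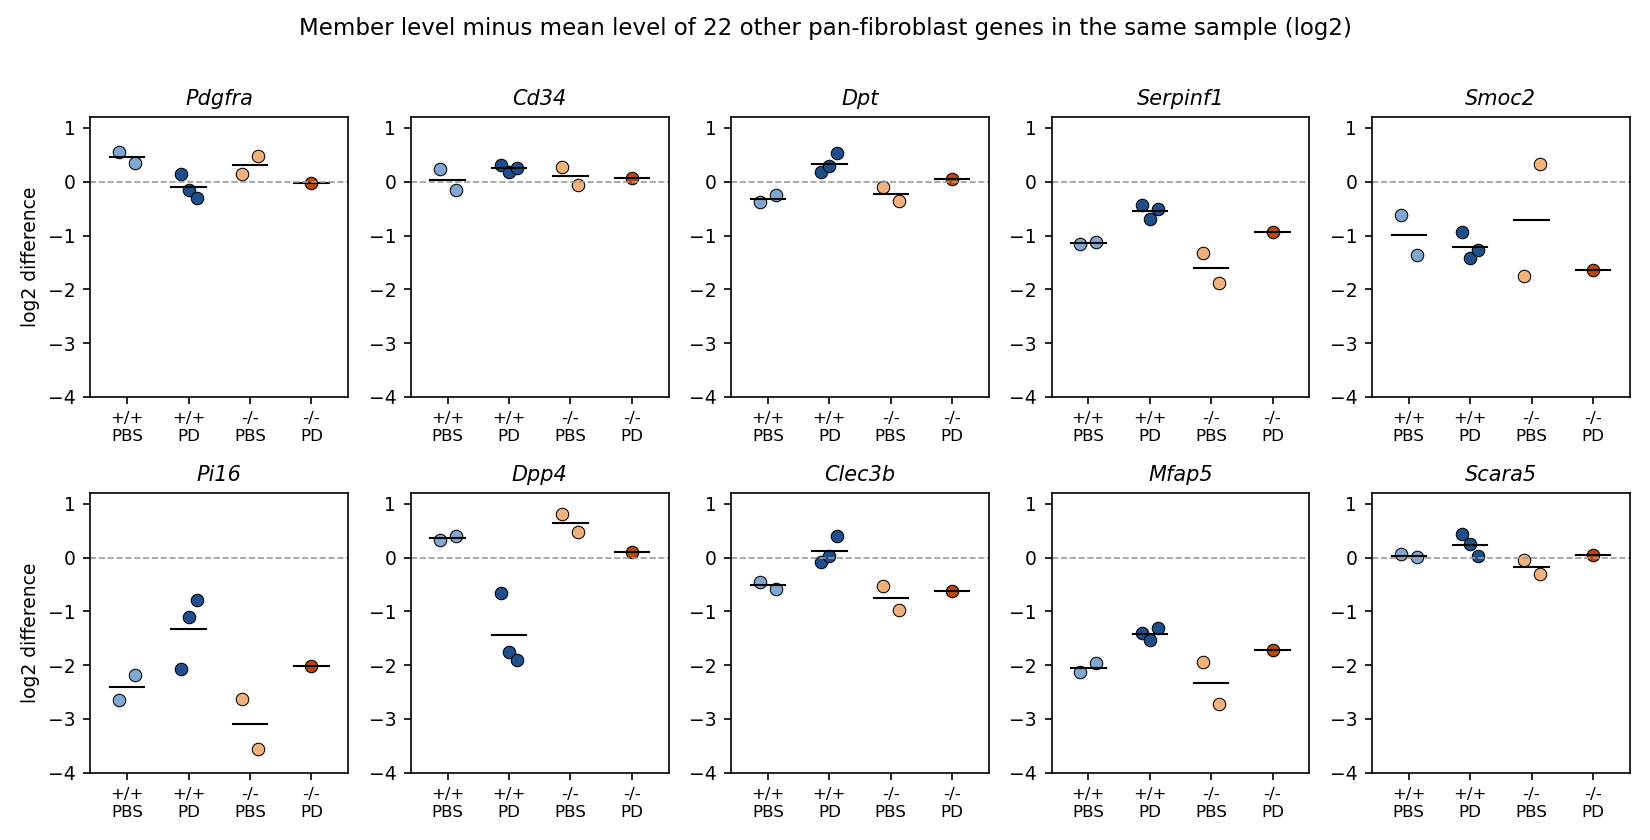
Log2 CPM of each member minus the mean log2 CPM of 22 other pan-fibroblast genes in the same sample (y axis), by genotype and fluid. Points are samples, bars are group means and the dashed line is 0. In Mr1+/+, Dpt and Clec3b lie below or above the line with PBS and PD fluid respectively, except 1 Clec3b sample at -0.09, and Dpp4 lies above it with PBS and between -1.90 and -0.66 with PD fluid.

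Genes that share the members' roles were counted by list in PD fluid against PBS in Mr1+/+. Of 22 other pan-fibroblast genes 16 were called higher and none lower, with a median log2 change of 1.43. The leading ones were Fbln1 (1.54), Col5a1 (1.46) and Islr (1.37), which encode a matrix fibulin, a fibrillar collagen chain and a marker of stromal cells, and Fstl1, a secreted glycoprotein, at a level of 83.7 to 95.7 CPM under PBS and 198 to 282 CPM under PD fluid. Fibrillar collagens of the list also rose, Col3a1 by 2.02 and Col1a1 by 1.32. Thy1, which T cells also express, stood at -0.49 and did not pass. Of 20 other genes of the Pi16+ Dpp4+ population 10 were called higher and none lower (median 1.07), among them Efhd1 (1.86), Ackr3 (1.49), Ly6c1 (1.42) and Limch1 (0.89). Surface or secreted markers of that population that did not pass included Cd55 (-0.10), Ly6a (0.30) and Sema3c (0.55). Of 18 genes of parenchymal fibroblasts and preadipocytes 12 were called higher and none lower (median 1.19), with Apod at 2.06, Penk at 1.76, F3 at 1.39 and Gdf10 at 1.19. Lpl and Pparg of that list are also adipocyte genes.

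Of 13 genes of activated fibroblasts 2 were called higher, Timp1 (log2 3.17), a metalloproteinase inhibitor, and Lox (1.98), which crosslinks collagen, and 1 was called lower, the transcription factor Runx1 (-0.82). Postn at 1.02, Acta2 at 0.87 and Tnc at -0.39 did not pass. Acta2, the actin of myofibroblasts and smooth muscle, ranged from 401 CPM in Mr1-/- PD fluid to 1169 CPM in Mr1-/- PBS replicate 2, the sample with high Rgs5. It was at 448 to 485 CPM in Mr1+/+ PBS and 670 to 983 CPM in Mr1+/+ PD fluid. Tagln, usually found beside Acta2, did not exceed 1.05 CPM in any of the 8 samples. No list was tested as a set, and the lists overlap in function, so these counts describe their genes only. In Mr1-/- mice none of these genes passed. Their medians there were 0.56 for the pan-fibroblast list, 0.42 for the progenitor list, 0.17 for the parenchymal list and 0.33 for the activated list.

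**Figure D4:**
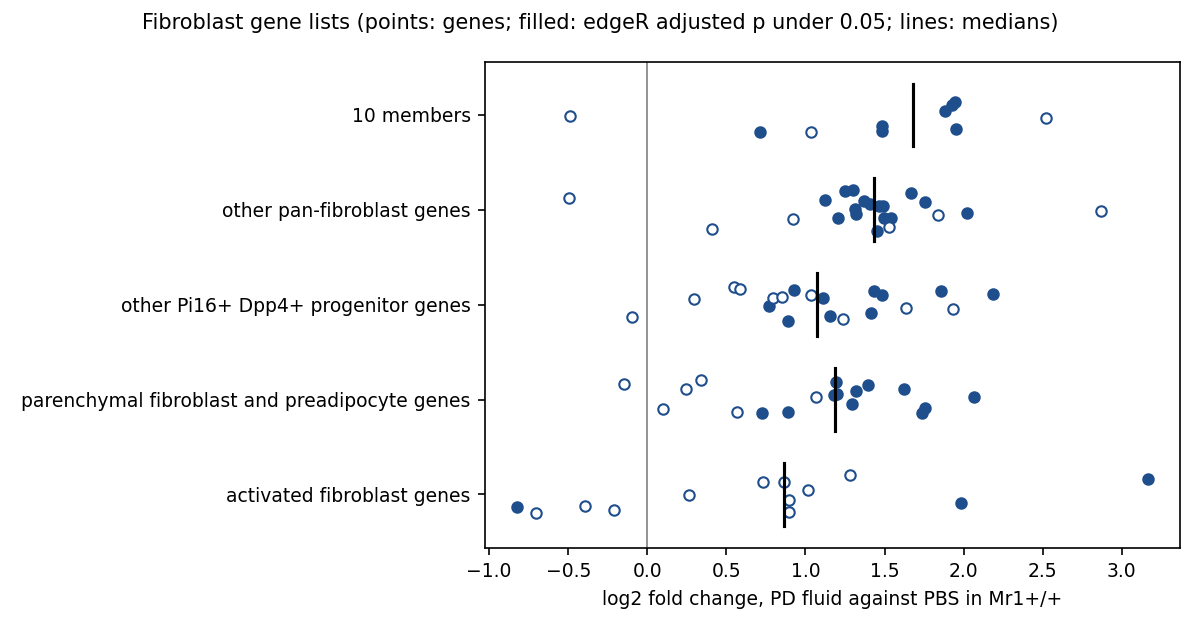
Log2 fold change in PD fluid against PBS in Mr1+/+ (x axis) for each gene of 5 fibroblast lists. Filled points passed the edgeR test and black lines are medians. Medians run from 0.87 for the activated list to 1.68 for the members, and vertical scatter within a list has no meaning.

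Markers of other cell types were also called. In Mr1+/+ mice, 5 of 8 macrophage markers and 2 of 7 pericyte markers were called higher with PD fluid, 7 of 7 B cell markers were called lower, and of 12 mesothelial markers none was called. Summed macrophage markers were 893 to 1110 CPM in Mr1+/+ PBS, 1493 to 1847 in Mr1+/+ PD fluid, 644 to 849 in Mr1-/- PBS and 1147 in Mr1-/- PD fluid. Summed B cell markers were 1896 to 3014 CPM, 1042 to 1184, 2060 to 2134 and 2283 in the same order. Skeletal muscle markers were near absent, at a summed 22.5 to 44.3 CPM. Of the 8 that could be tested 1 was called higher in Mr1+/+, Myl1 at a log2 difference of 2.15. Estimates of 5 of these 8 were below 0, with a median of -0.50. CPM are shares of a library, and the part of these shifts in the members' values was not tested.

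**Figure D5:**
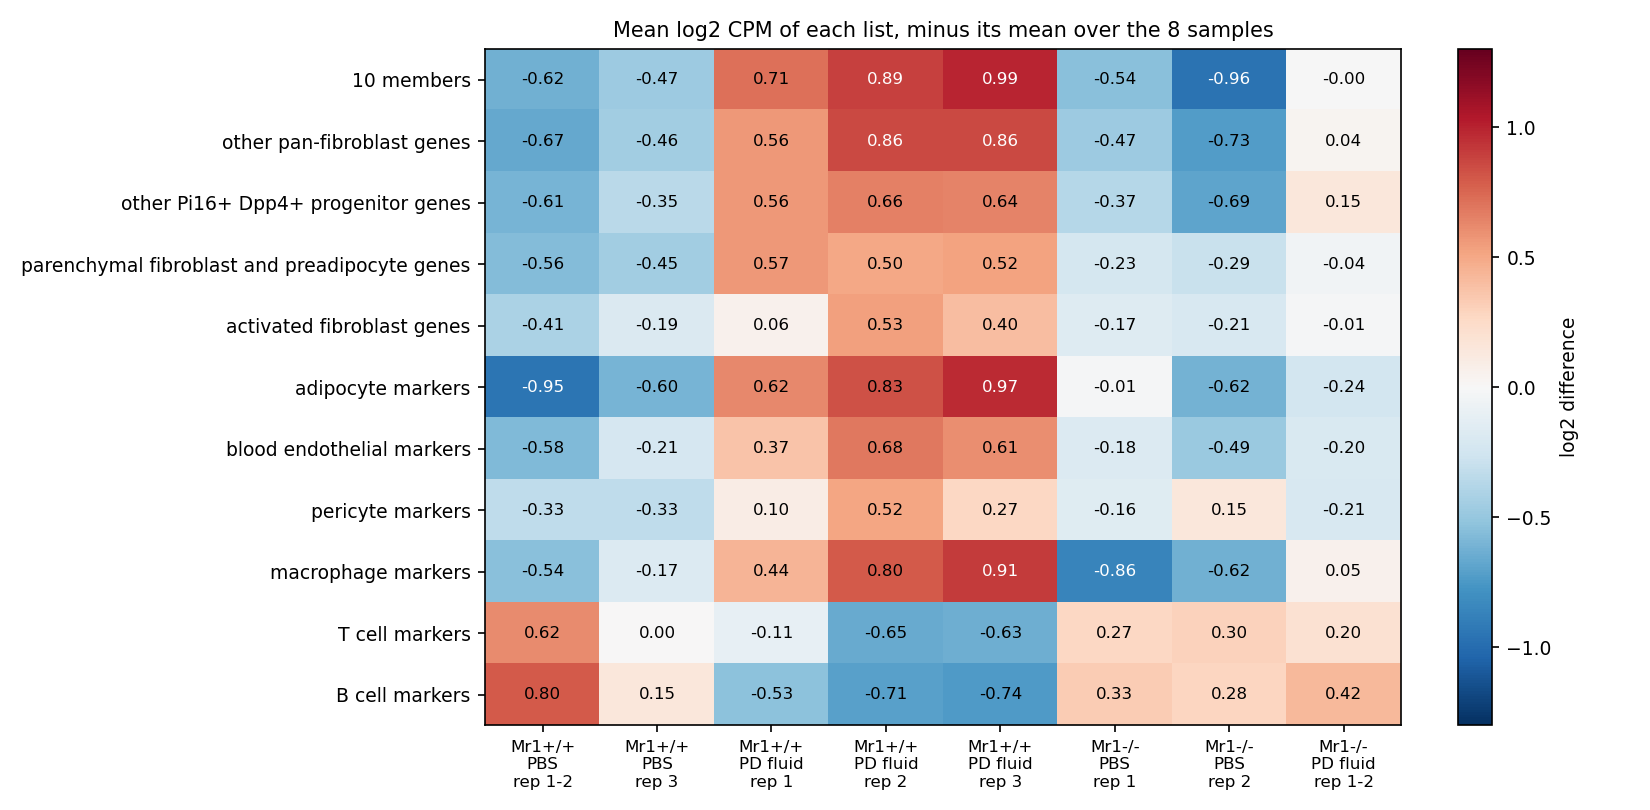
Mean log2 CPM of each gene list in each sample minus the list's mean over the 8 samples, with the value written in each cell (red higher, blue lower). The members range from -0.96 in Mr1-/- PBS replicate 2 to 0.99 in Mr1+/+ PD fluid replicate 3. Adipocyte markers are high in the same 3 Mr1+/+ PD fluid samples, and B cell markers are lowest in them.

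Genes whose level followed the members most closely over the 8 samples were found among 11527 candidates by Pearson's r with the members' mean z-score. They were Acvrl1 (r = 0.996, 53.2 to 114 CPM), an endothelial receptor of the TGF-beta family, Pla1a (0.996, 4.74 to 33.8 CPM), Lrrc17 (0.994), Pcolce2 (0.989), which enhances procollagen processing, and C1s1 (0.988), a complement protease. With Pi16 alone the closest were Cd300lb (r = 0.995), Col3a1 (0.993) and Ccl6 (0.991), a myeloid receptor, a collagen chain and a chemokine. These values describe 8 samples that differ in genotype, fluid and cell content, and the closest of many candidates are high by selection.

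Counting itself limits 4 members. GENCODE M21 places antisense genes over exons of Pdgfra (456 and 166 bases shared), Dpp4 (232), Pi16 (222) and Cd34 (148). None of these was in the count table, and no strand-marking step is named, so reads of the partners could not be told apart from those of the members.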

How the data were processed

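RNA of mouse peritoneum was sequenced from poly-A selected, randomly primed libraries, per the labels' protocols. The authors deposited whole-number read counts per gene symbol for 10 libraries, not normalized. Per the submitters' processing notes the reads were placed on build mm10, and the aligner, counter and annotation were not given in the sources used here. Library totals were 14145635 to 16335799 counts. The near-identical libraries were summed, counts under edgeR's filterByExpr were dropped, and 15385 genes were fitted with 4 group means over 8 samples (4 residual degrees of freedom) by edgeR 4.0.16 (TMM, robust quasi-likelihood) in R 4.3.3, with Benjamini-Hochberg adjustment over all tested genes. The script was tested on simulated counts. A standard error is the size of the log2 difference over the root of F. Exon lengths and coordinates came from GENCODE M21, and 97.0% of symbols were found in it.

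The members and gene lists were chosen with earlier results of these data known. Named genes were the 10 members, Mr1, and, of each fibroblast list, the 4 with the smallest p in PD fluid against PBS in Mr1+/+. Other genes of a list that are named, among them Col3a1, Col1a1, Myl1, Thy1, Cd55, Ly6a, Sema3c, Postn, Acta2 and Tagln, were chosen after their values were seen. Log2 differences from the pan-fibroblast mean and likeness used a pseudocount of 0.5, and likeness a mean of at least 5 CPM. CPM ratios to Pdgfra used no pseudocount. Alternatives were DESeq2 1.42.0, other size factors, no filter, 10 separate libraries, a replicate block, only the groups compared, adipocyte or skeletal muscle covariates, and each sample left out. The 19 lists also covered intestinal, pancreatic, liver and erythroid markers.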

Additional observations from a re-analysis of the deposited data

How the results depend on the processing

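Leaving out Mr1+/+ PD fluid replicate 3 ended all 7 calls in Mr1+/+ and leaving out replicate 2 ended 3 of them, while the log2 differences of the 7 members stayed between 0.70 and 1.98. The lone Mr1-/- PD fluid sample limits every comparison that uses it. In PD fluid against PBS in Mr1+/+, 2286 genes and 7 members were called. Other settings gave 5549 genes with 10 separate libraries (8 members), 5537 with the replicate block (8 members) and 3780 with DESeq2 (9 members). The adipocyte covariate gave 71 genes and 0 members. Leaving out a sample gave 0 to 2751 genes and 0 to 8 members, with 0 of both without PD fluid replicate 3, and 339 genes and 4 members without replicate 2. In Mr1-/- mice, 0 genes became 2 with 10 libraries, 3 with DESeq2, 1 with the adipocyte and 8 with the muscle covariate, and 0 to 1 with a sample left out. For the genotypes under PBS, 2 genes became 50 with 10 libraries, 212 with DESeq2, 6 with no filter, 0 with only the groups compared, 119 with the adipocyte covariate, 50 with the muscle covariate and 1 to 665 with a sample left out. Under PD fluid, 2 genes became 3400 with 10 libraries (7 members), 2428 with the replicate block (6 members), 1031 with DESeq2 (6 members), 7 with no filter, 561 with only the groups compared (6 members), 31 and 19 with the adipocyte and muscle covariates and 0 to 42 with a sample left out. For the interaction, 0 genes became 1490 with 10 libraries (3 members), 1915 with the replicate block (2 members), 472 with DESeq2, 51 and 55 with the adipocyte and muscle covariates and 0 to 311 with a sample left out. Without both PBS samples that stood apart, a choice made after seeing the data, counts were 111 for the genotypes under PBS, 557 (6 members) under PD fluid and 328 for the interaction. The fits with 10 libraries and with the replicate block count each near-identical pair as 2 samples and may understate the spread. The cause of the shifts between settings was not tested.

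Some log2 estimates changed sign. With the adipocyte covariate these were Pi16 (-1.77), Clec3b (-0.0234) and Mfap5 (-0.51) for PD fluid in Mr1+/+; Cd34 (-0.32) and Dpt (-0.50) for genotype under PBS; Dpt (0.17), Serpinf1 (0.0391), Pi16 (1.33) and Mfap5 (0.59) for genotype under PD fluid; and Cd34 (0.13), Dpt (0.67), Serpinf1 (1.10), Pi16 (3.37), Clec3b (0.69), Mfap5 (1.66) and Scara5 (0.24) for the interaction. With the muscle covariate they were Pi16 in the interaction (0.29) and Cd34 for genotype under PBS (-0.0113), where Cd34 was also -0.00435 with 10 libraries and -0.0150 with the replicate block. Without both PBS samples that stood apart they were Smoc2 (0.61) and Dpp4 (-0.20) for PD fluid in Mr1-/-, and Smoc2 (-0.97), Pi16 (0.19), Clec3b (0.0869), Mfap5 (0.39) and Scara5 (0.0633) for genotype under PBS. With a sample left out, Smoc2 ranged from -1.22 to 0.61 and Dpp4 from -0.20 to 0.41 for PD fluid in Mr1-/-. For genotype under PBS, Cd34 ranged from -0.31 to 0.29, Dpt from -0.26 to 0.28, Smoc2 from -0.74 to 1.10, Dpp4 from -0.11 to 0.50, Clec3b from -0.66 to 0.0480 and Mfap5 from -0.93 to 0.17. Deviations of same-numbered libraries correlated at -0.16 to 0.17. With groups of 2 libraries and near-identical libraries, these correlations cannot tell whether the replicate numbers pair the samples.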

Other observations

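Red cell and liver transcripts, which stand outside the fibroblast comparisons, differed between groups. In PD fluid against PBS in Mr1+/+, 3 of 5 tested erythroid genes were called higher by edgeR: Hbb-bt (log2 2.60), Hba-a1 (2.45) and Alas2 (2.30). The summed level of the erythroid list was 18.1 to 35.6 CPM in Mr1+/+ PBS, 84.8 to 240 in Mr1+/+ PD fluid, 14.2 to 20.2 in Mr1-/- PBS and 51.7 in Mr1-/- PD fluid. Hba-a1 and Hba-a2 are near-identical copies, as are Hbb-bs and Hbb-bt, so the separate values within each pair are uncertain.

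Alb, the gene for serum albumin, was the other gene called beside Mr1 in both genotype comparisons. It was present at 0.215 and 0.491 CPM in Mr1+/+ PBS, at 0.805 to 2.17 CPM in Mr1+/+ PD fluid, at 64.1 and 105 CPM in Mr1-/- PBS and at 107 CPM in Mr1-/- PD fluid. The summed liver list was 246 CPM in Mr1+/+ PBS replicate 3 and 0.584 in the other Mr1+/+ PBS sample. Alb was only 0.491 of those 246 CPM, in the sample high in intestinal epithelium markers. The source of the rest was not tested. The list's sum was 2.98 to 3.37 CPM in Mr1+/+ PD fluid, 86.1 and 141 in Mr1-/- PBS and 142 in Mr1-/- PD fluid.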
